A study of Mus musculus with 28 samples.

Results

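The sarcomere and Z-disc structural genes are 34 genes that encode the contractile unit of heart muscle and the proteins that anchor it. They were taken by gene name from the count table, which lists 45513 genes, and every name was found once. By role, they are 3 thick filament genes, 2 M-band genes, titin, 8 thin filament genes, 10 Z-disc genes, 4 titin-linked or intercalated disc adaptors, 2 genes for the intermediate filament and its chaperone, and 4 assembly factors and kinases. RNA came from the ventricular myocardium of 28 adult male C57BL/6 mice, 1 library per mouse, and the replicates of a group are different mice. At 6 weeks of age the mice had a 5/6 nephrectomy, a removal of most kidney tissue in 2 stages that gives chronic kidney disease (CKD), or a sham operation. On day 7 they were gavaged once with Oxalobacter formigenes (Oxf), a gut bacterium that degrades oxalate, or with 200 µl of culture medium alone (vehicle). All mice, the sham-vehicle mice included, ate a diet with 1% hydroxyproline, an oxalate precursor, and 0.5% calcium. With vehicle there were 10 sham mice and 6 CKD mice (sham-vehicle, CKD-vehicle), and with Oxf 7 CKD mice and 5 sham mice (CKD-Oxf, sham-Oxf). Mice are named by their number. The design describes 10 mice per group, and the other mice were not analysed here. The question in the series title is the effect of Oxf colonization on the heart in CKD.

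In the sarcomere, thick filaments of myosin slide along thin filaments of actin, and the troponin and tropomyosin on the thin filament make this sliding depend on calcium. Z-discs anchor the thin filaments at the ends of each sarcomere, the M-band links the thick filaments in its middle, and titin spans from Z-disc to M-band as a molecular spring. Many Z-disc proteins also shuttle signals of mechanical stretch, and the fetal isoforms of several of these proteins are known to return in the stressed heart.

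The promoters of 3 of these genes are shown as examples of the patterns described further on. Tnni3, cardiac troponin I, was the gene with a change past the threshold, Myl3, the essential myosin light chain, had the steepest rise with the 7SL RNA share, and Ttn, titin, the gene with the most counts, was among the 4 that fell with it. Each sequence holds the 250 bases before the RefSeq start site, read 5′ to 3′ on the strand of the gene from RefSeq's GRCm38.p6 table. The windows are chr7:4522529-4522778 on the minus strand for Tnni3, chr9:110763428-110763677 on the plus strand for Myl3 and chr2:76982548-76982797 on the minus strand for Ttn. Capitals mark letters that match a searched motif. The Ttn start is that of the GENCODE M21 gene, while the RefSeq starts of Tnni3 and Myl3 lie inside the longer M21 gene spans.
Tnni3: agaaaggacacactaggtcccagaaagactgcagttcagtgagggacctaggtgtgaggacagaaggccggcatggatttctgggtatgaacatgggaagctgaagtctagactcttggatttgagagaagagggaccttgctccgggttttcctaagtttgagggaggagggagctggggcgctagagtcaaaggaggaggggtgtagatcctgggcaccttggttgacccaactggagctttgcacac
Myl3: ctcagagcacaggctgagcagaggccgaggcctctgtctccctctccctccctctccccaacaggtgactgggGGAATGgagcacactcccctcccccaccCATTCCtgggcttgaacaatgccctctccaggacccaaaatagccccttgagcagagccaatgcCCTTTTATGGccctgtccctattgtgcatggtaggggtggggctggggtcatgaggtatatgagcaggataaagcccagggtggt
Ttn: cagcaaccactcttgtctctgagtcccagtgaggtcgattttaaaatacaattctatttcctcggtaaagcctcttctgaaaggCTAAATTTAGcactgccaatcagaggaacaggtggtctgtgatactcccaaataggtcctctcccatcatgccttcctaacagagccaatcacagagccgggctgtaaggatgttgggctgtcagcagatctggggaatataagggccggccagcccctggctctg
The Myl3 window held the SRF-binding CArG box, whose first base lay 85 bases before the start, and the TEAD motif on either strand at 149 and 177 bases. The Ttn window held a match to the MEF2 motif at 166 bases. The Tnni3 window held none of the 6 motifs searched, and no matches overlapped in these 3 windows. The motifs were the E-box (CACGTG), the TATA box (TATAAA), the TEAD motif (CATTCC), the GATA motif (AGATAA), MEF2 and CArG, each on both strands. RefSeq windows were found for 29 of the 34 genes, as 46 entries. The CArG box was in 15.2% of these entries and in 1.47% of all 32851 windows, MEF2 in 10.9% and 0.508%, and the TEAD motif in 23.9% and 12.6%. The GATA motif was in 17.4% and 9.99%, the TATA box in 8.7% and 12.4%, and the E-box in 4.35% and 6.02%. A gene can have several entries that share sequence, so the shares are descriptions.

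Libraries held 19.8 M to 65.4 M counts, where 1 M is 1000000. The share of all 34 genes in a library was 2.67% to 8.48%, and that of Ttn alone was 1.39% to 7.01%. All 34 passed the filter on low counts, among 24273 genes tested. Markers of heart muscle cells were high in every library, with a summed level of 17885 to 46271 CPM (counts per 1000000 library counts after TMM scaling) over 10 genes, against 80.7 to 145 CPM over 6 macrophage genes. A list of 10 skeletal muscle genes summed to 633 CPM in sham-vehicle mouse 906 and 758 CPM in CKD-vehicle mouse 913, to 29.3 CPM in sham-Oxf mouse 921, and to 3.94 to 9.14 CPM in the other libraries. Mouse 921 also had the lowest depth and 15879 genes with a count, against at least 27128 elsewhere. Counts of 7SL, the small RNA on which the signal recognition particle is built, made up 1.83% to 20.98% of a library (2 near-identical copies, Rn7s1 and Rn7s2, summed). A clock score, the log2 level of genes around Dbp and Per1 minus that of genes around Arntl, averaged 0 in sham-vehicle by construction. Its mean was -1.61 ± 1.02 with CKD and vehicle, and with Oxf it was 1.85 ± 0.665 in sham and 1.23 ± 0.646 in CKD mice. In such bulk tissue, fewer heart muscle cells and less RNA per cell cannot be told apart.

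In sham-vehicle hearts, levels per kilobase (kb) of exon differed widely among the genes. Myl2, the ventricular regulatory light chain, was highest with 505 ± 300 CPM per kb (SD, n = 10). Tcap (telethonin, the cap of titin at the Z-disc) followed with 455 ± 144, then Tnni3 with 412 ± 173, Tnnt2 (cardiac troponin T) with 375 ± 85.3 and Mybpc3 (myosin-binding protein C) with 316 ± 88.2 CPM per kb. Neighbours in this order were closer than their spread. Ttn, which leads by raw counts, was sixth on this scale with 284 ± 83.5 CPM per kb because its exons add up to 116825 bases. At the low end, Pdlim3, an actinin-associated LIM protein, had 6.48 ± 1.38 and Ankrd23, a titin-binding stretch sensor, 3.66 ± 1.352 CPM per kb. Tnni1, the troponin I isoform of slow skeletal and fetal heart muscle, had 0.0864 ± 0.0677 CPM per kb. Its counts ran from 0 to 38 per library, and it made up 0.0396% of the summed Tnni1 and Tnni3 counts.

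Nephrectomy under vehicle went with higher sarcomere values almost throughout. In CKD-vehicle against sham-vehicle, 33 of the 34 log2 fold changes were above 0, with a median of 0.36, while 44.4% of all tested genes were above 0 with a median of -0.03. No single gene passed an adjusted p of 0.05 in edgeR, where 0.00824% of all genes did. DESeq2 called 1 of the 34 (Xirp1) and limma voom 3 (Xirp1, Nebl and Myom1), all higher, where these tools called 0.119% and 0.383% of all genes. At an unadjusted p below 0.05, 8 of 34 were higher and 0 lower, against 2.09% of all genes higher and 2.37% lower (4.46% in all). The count above 0 was 33 of 34 with TMM, DESeq2 size factors and upper quartile scaling alike, and 30 of 34 with a median of 0.18 when the clock score was a covariate. The 10 heart muscle cell markers, some of them sarcomere genes themselves, were also higher in sum. Their summed level was 25796 ± 5004 CPM in sham-vehicle and 34465 ± 5982 in CKD-vehicle, with ranges of 17885 to 32696 and 30650 to 46271. Most of this sum was Myh6, a myosin gene, with means of 16930 CPM in sham-vehicle and 22164.5 CPM in CKD-vehicle. The 8 atrial markers averaged 1611 ± 972 CPM in sham-vehicle and 2213 ± 680 CPM in CKD-vehicle, and 5 adipocyte markers 123 ± 139 and 45.1 ± 77.4 CPM, both with overlapping ranges. The part of these lists in the sarcomere values was not tested.

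Among these genes, Xirp1 (Xin, an actin-binding repeat protein of the intercalated disc) had the smallest p-value in this comparison. It ran from 98.3 CPM through a median of 122 to 146 CPM in sham-vehicle and from 154 through 175 to 250 CPM in CKD-vehicle. The 2 ranges did not overlap, and CKD-vehicle mouse 914 was the highest. The fold change was 0.61 ± 0.14 on the log2 scale (SE), with an unadjusted p of 0.000184 and an adjusted p of 0.447 in edgeR. The adjusted p was 0.0229 in DESeq2 and 0.0358 in voom, and without mouse 914 the fold change was 0.47. Xirp1 passed in 2 of 10 other settings, these 2 tools, and in 0 of 16 fits that left out 1 library. Over the 10 settings, covariate fits included, the fold change ran from 0.42 to 0.63. Xirp1 levels in sham-Oxf were 93.1, 118, 118, 121 and 153 CPM. In CKD-Oxf they ran from 103 through 151 to 203 CPM and overlapped with those of sham-Oxf. That second comparison gave 0.37 ± 0.16 with an adjusted p of 0.536, and both surgery comparisons averaged gave 0.49 ± 0.11 with an adjusted p of 0.230. In the annotation Xirp1 overlaps Cx3cr1 on the same strand, so reads of the shared stretch are uncertain.

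**Figure D1:**
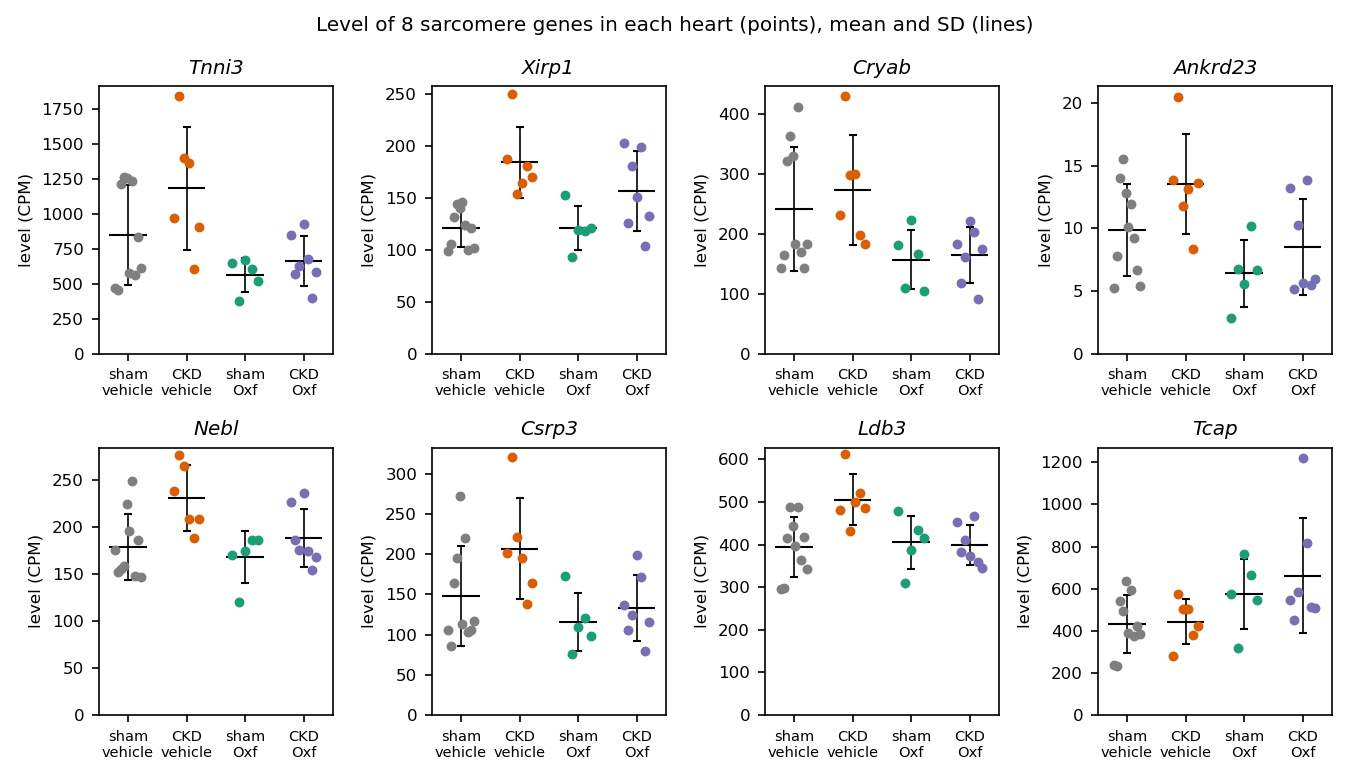
Level of 8 sarcomere genes in each heart (points, CPM on a linear axis from 0) by group, with the group mean and SD as lines. Xirp1 is the one panel in which CKD-vehicle (154 to 250 CPM) lies wholly above sham-vehicle (98.3 to 146 CPM), and the Tnni3 values of the Oxf groups reach 929 CPM at most, against 1843 CPM with vehicle.

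By role, the Z-disc genes held most of the small p-values of this comparison: all 10 had values above 0 (median 0.37), and 5 of 10 had an unadjusted p below 0.05. These were Ldb3 (Cypher, a PDZ-LIM protein that binds actinin), Nebl (nebulette), Actn2 (sarcomeric alpha-actinin, the cross-linker of Z-disc actin), Myoz2 (calsarcin-1, a calcineurin-binding protein) and Synpo2l. Ldb3 ran from 295 through 406 to 489 CPM in sham-vehicle and from 432 through 492 to 612 CPM in CKD-vehicle, so the groups overlapped at their ends. Its fold change was 0.36 ± 0.12. Nebl ran from 147 through 167 to 249 CPM and from 188 through 223 to 277 CPM, with a fold change of 0.37 ± 0.13. The fold changes were 0.62 ± 0.24 for Myoz2, 0.43 ± 0.19 for Actn2 and 0.38 ± 0.15 for Synpo2l, and adjusted p-values of all 10 Z-disc genes were above 0.05. Csrp3 gave 0.48 ± 0.24, Pdlim5 0.40 ± 0.22, Flnc, the filamin that cross-links actin in muscle, 0.35 ± 0.18 and Pdlim3 0.13 ± 0.22. The smallest Z-disc value was that of Tcap, 0.04 ± 0.23.

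The thick filament genes had a median of 0.45 and the M-band genes of 0.40. Myl3 gave 0.58 ± 0.42, Myl2 0.45 ± 0.39 and Mybpc3 0.31 ± 0.21. The myomesins, which cross-link thick filaments in the M-band, gave 0.43 ± 0.15 (Myom1) and 0.37 ± 0.20 (Myom2). Titin gave 0.22 ± 0.22, with 19744 to 48089 CPM in sham-vehicle and 25819 to 55309 CPM in CKD-vehicle, 2 ranges that overlapped over most of their length. All 8 thin filament genes were above 0 with none at an unadjusted p below 0.05. They ran from 0.09 ± 0.27 for Tpm2 (beta-tropomyosin) to 0.50 ± 0.27 for Tnnc1 (cardiac troponin C, the calcium sensor). Between them lay Tnni3 (0.48 ± 0.25), Tpm1 (alpha-tropomyosin, 0.44 ± 0.23), Lmod3 (0.30 ± 0.24), Tnni1 (0.18 ± 0.53), Lmod2 (0.16 ± 0.15) and Tnnt2 (0.15 ± 0.16). The leiomodins Lmod2 and Lmod3 nucleate actin and set the length of thin filaments.

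The other roles followed the same direction, with 1 exception. Desmin (Des), the intermediate filament that ties Z-discs together, gave 0.52 ± 0.23 and its chaperone alpha-B crystallin (Cryab) 0.18 ± 0.25. Ankrd23 gave 0.46 ± 0.27, Fhl2, a LIM protein on titin, 0.29 ± 0.20 and Nrap, an anchor of growing myofibrils, 0.28 ± 0.19. Of the assembly factors, Smyd1 (a methyltransferase that acts on myosin) gave 0.39 ± 0.20, Mylk3 (the cardiac myosin light chain kinase) 0.22 ± 0.16 and Speg (a kinase related to titin) 0.16 ± 0.29. Unc45b, the myosin chaperone, was the single value below 0, at -0.13 ± 0.17.

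**Figure D2:**
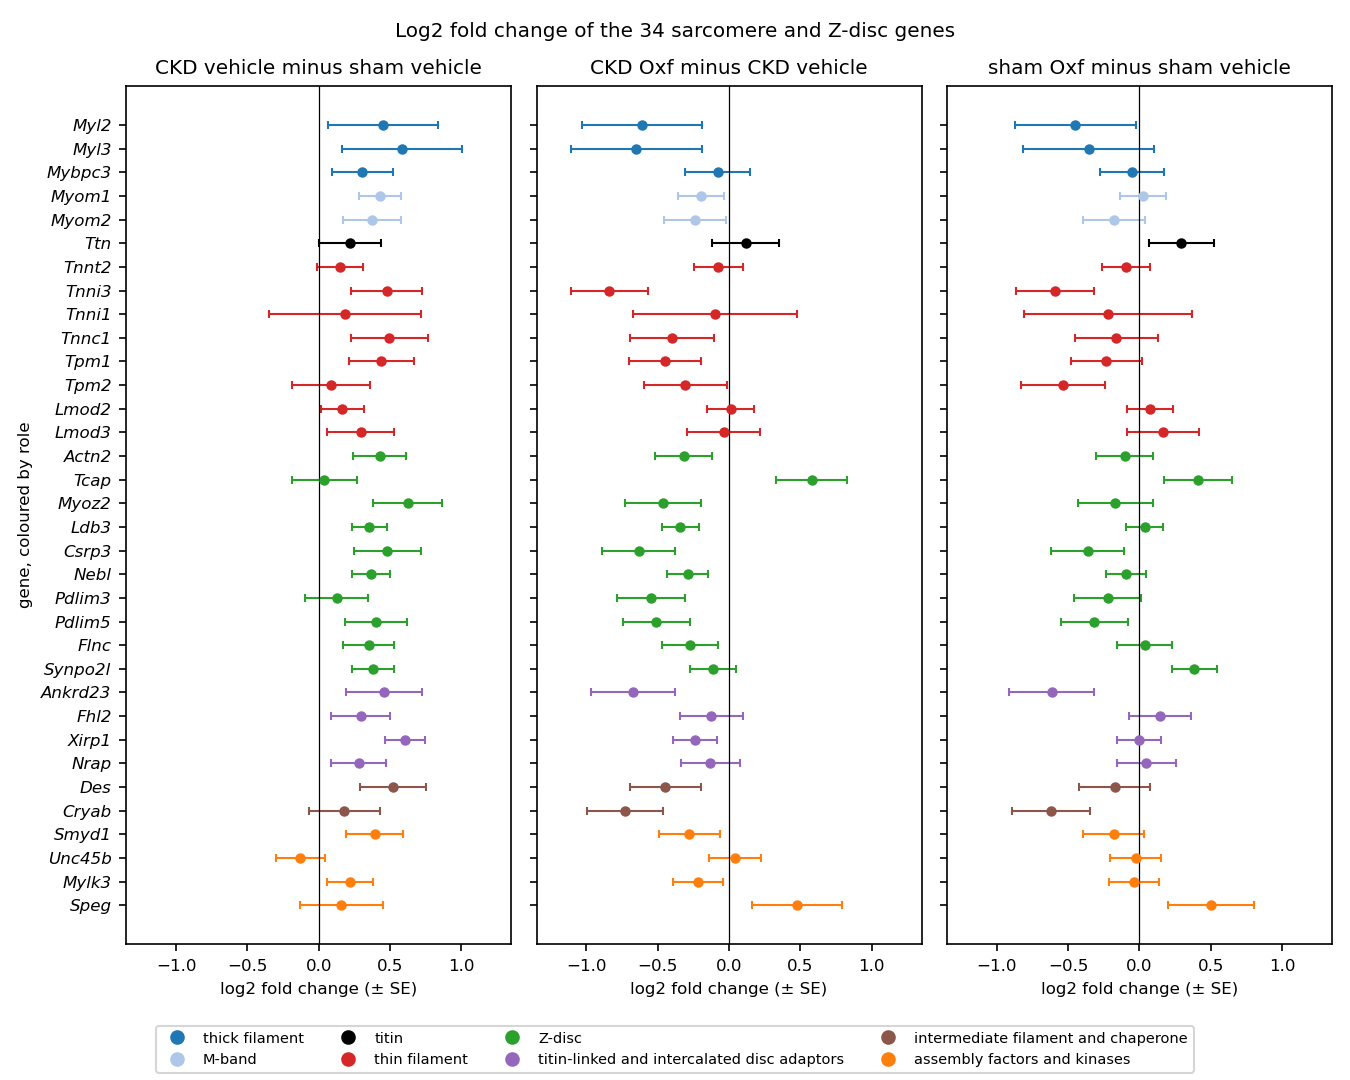
Log2 fold change with its SE (x axis) of each of the 34 genes (y axis, coloured by role) in 3 comparisons. In CKD-vehicle against sham-vehicle 33 of 34 points lie above 0, in CKD-Oxf against CKD-vehicle 29 lie below 0, and Tcap, Speg and Ttn are among the few to the right in both Oxf panels; the first 2 panels share the CKD-vehicle mice.

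In CKD mice, Oxf against vehicle gave mostly lower values. Here 29 of 34 log2 fold changes were below 0 with a median of -0.28, against a median of 0.03 over all genes. Of all tested genes 53.2% were above 0. The CKD-vehicle mice enter this comparison and the one above with opposite sign, so the 2 sets of values are not independent. EdgeR called 0 of 34 at an adjusted p of 0.05 (0.033% of all genes, 0.0247% higher), DESeq2 called 0, and voom called 5, all lower: Ankrd23, Tnni3, Csrp3, Cryab and Ldb3. Voom called 15% of all genes in this comparison, so its 14.7% of the members is at the background, and DESeq2 called 0.783%. At an unadjusted p below 0.05, 1 of 34 was higher and 7 lower, against 6.89% of all genes higher and 6.2% lower (13.1% in all). With the clock score as covariate the median was -0.00396 and 17 of 34 were below 0. Without CKD-Oxf mouse 934 edgeR called 1 of the 34, Tnni3, while it called 3.83% of all genes, up from 0.033%, so this count is no higher than the background. Marker sums moved both ways. Heart muscle cell markers were lower in CKD-Oxf than in CKD-vehicle (29147 ± 5422 against 34465 ± 5982 CPM). So were 8 atrial genes (1417 ± 712 against 2213 ± 680 CPM) and 7 fibroblast genes (516 ± 139 against 707 ± 207 CPM). By median, Ryr2 and Nkx2-5 of the heart muscle list and Stard10 of the atrial list were higher. The sums of endothelial (935 ± 211 against 862 ± 83.3 CPM) and smooth muscle markers (584 ± 173 against 530 ± 131 CPM) were higher. By median, only Smtn of the smooth muscle list was higher (412 against 285 CPM), while Myh11, Acta2, Tagln, Cnn1 and Lmod1 were lower. Kdr and Emcn of the endothelial list were lower, and its other genes higher. The sums of adipocyte (122 ± 174 against 45.1 ± 77.4 CPM) and erythroid markers (48.3 ± 39.5 against 26.4 ± 16.5 CPM) were higher as well. Hbb-bs and Hbb-bt of the erythroid list were lower by median. Ranges overlapped for each of these lists. Their part in the sarcomere values was not tested.

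Without nephrectomy, the Oxf values lay closer to 0, and whether the 2 Oxf effects differ is the interaction test given next. In sham-Oxf against sham-vehicle, 23 of 34 values were below 0 and 11 above, with a median of -0.10 against -0.04 over all genes. Of all tested genes 45.1% were above 0. EdgeR called 0 of 34 and 0% of all genes. DESeq2 and voom also called 0 of 34, where they called 0.54% and 0.14% of all genes. At an unadjusted p below 0.05 there were 1 higher and 3 lower, against 6.6% of all genes higher and 5.98% lower (12.6% in all). The interaction, the difference between the Oxf effects in CKD and sham mice, gave 0 calls of 34 in edgeR, DESeq2 and voom. Each of these tools called 0% of all genes. Its unadjusted p was below 0.05 for 1 gene (Synpo2l, -0.50 ± 0.22), against 2.07% of all genes lower and 3.55% in all. The other surgery comparison, CKD-Oxf against sham-Oxf, had 30 of 34 values above 0 with a median of 0.21. Of all genes 56.7% were above 0, with a median of 0.05. EdgeR, DESeq2 and voom called 0 of 34 there, and 0%, 0.412% and 0% of all genes. Xirp1 was the 1 gene with an unadjusted p below 0.05, against 8.23% of all genes (3% higher and 5.22% lower).

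Averaged over both surgeries, Oxf against vehicle gave 1 call among the 34 in edgeR, Tnni3, which fell. All genes were called at a rate of 2.81% in either direction, 1.54% lower and 1.26% higher, so 1 of 34 is near the background. At an unadjusted p below 0.05, 2 of the 34 were higher and 6 lower, against 23% of all genes in either direction. Averaged over both gavages, nephrectomy gave 0 calls of 34 and 0% of all genes in edgeR, and 1 (Xirp1, higher) in both DESeq2 (0.466% of all genes) and voom (0.519%). At an unadjusted p below 0.05, 9 were higher and 0 lower, against 5.17% of all genes higher and 5.45% lower (10.6% in all). The test for any difference over the 4 groups called 0 of the 34 in edgeR (0.148% of all genes), with an unadjusted p below 0.05 for 12 (16.1% of all genes), and it called 2 in DESeq2 (4.41% of all genes) and 11 in voom (15.8% of all genes).

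Tnni3, which inhibits the actin-myosin contact until calcium binds troponin C, had its 2 lowest group means with Oxf, 563.8 ± 121 CPM in sham-Oxf (SD, n = 5) and 661 ± 180 CPM in CKD-Oxf (n = 7). Its levels were 376, 516, 607, 651 and 670 CPM in sham-Oxf and ran from 396 through 624 to 929 CPM in CKD-Oxf. In sham-vehicle they ran from 455 through 725 to 1266 CPM and in CKD-vehicle from 609 through 1168 to 1843 CPM. Of the 5 sham-Oxf values, that of mouse 923 lay below the sham-vehicle range and the other four lay inside it, and 4 of the 6 CKD-vehicle values lay above every CKD-Oxf value. The log2 fold change was -0.84 ± 0.27 in CKD mice (adjusted p = 0.230 in edgeR) and -0.59 ± 0.28 in sham mice (0.369). Averaged, it was -0.72 ± 0.19 with an adjusted p of 0.0447. This call ended when any of 16 of the 28 libraries was left out, with adjusted p-values up to 0.0860 (without CKD-vehicle mouse 914). It was also lost with the clock score as covariate (-0.37, adjusted p = 0.787), with the log2 7SL share as covariate (-0.30, 0.332) and without a count filter (-0.74, 0.0784). Tnni3 overlaps Dnaaf3 on the same strand.

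Cryab and Ankrd23 had Oxf values of like size that missed the threshold. Cryab was 105, 110, 166, 182 and 223 CPM in sham-Oxf and ran from 91.6 through 175 to 222 CPM in CKD-Oxf. In sham-vehicle it ran from 143 through 183 to 412 CPM and in CKD-vehicle from 183 through 265 to 430 CPM. Sham-vehicle mice 903, 904, 905 and 907 were at 322 CPM or above, and the groups overlapped. Averaged over surgery the fold change was -0.68 ± 0.19 (adjusted p = 0.0505). Cryab passed the threshold in 9 of 28 fits that left out 1 library and in 5 of 9 other settings, and the value was -0.22 with the clock score and -0.40 with the 7SL share as covariate (adjusted p = 0.881 and 0.273). Ankrd23 was 2.85, 5.55, 6.66, 6.75 and 10.2 CPM in sham-Oxf and 5.16 through 5.94 to 13.9 CPM in CKD-Oxf, against 5.196 through 9.65 to 15.5 CPM in sham-vehicle and 8.33 through 13.4 to 20.5 CPM in CKD-vehicle. Its averaged fold change was -0.64 ± 0.21 (adjusted p = 0.0750), with overlap between all groups. Ankrd23 passed in 2 of 28 and 3 of 9 such fits, and the value was -0.22 with the clock score as covariate (adjusted p = 0.898). Ankrd23 overlaps Gm42417 on the same strand. Cryab overlaps Hspb2 on the other strand, and the use of strand in counting is not given in the sources used here.

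Most Z-disc genes had Oxf values below 0, with Tcap on the other side. Csrp3, the muscle LIM protein, was 76.1, 98.0, 110, 121 and 173 CPM in sham-Oxf and ran from 79.5 through 125 to 199 CPM in CKD-Oxf. It ran from 86.2 through 115 to 272 CPM in sham-vehicle and from 138 through 199 to 321 CPM in CKD-vehicle. The averaged fold change was -0.50 ± 0.18 (adjusted p = 0.106), and the groups overlapped. It was -0.06 with the clock score and -0.16 with the 7SL share as covariate (adjusted p = 0.975 and 0.538), and Csrp3 passed in 2 of 9 other settings, DESeq2 and voom. The averaged values of the PDZ-LIM genes were -0.41 ± 0.17 for Pdlim5 and -0.38 ± 0.17 for Pdlim3. Ldb3 was 311, 387, 415, 434 and 478 CPM in sham-Oxf and 345 through 383 to 467 CPM in CKD-Oxf, with fold changes of -0.34 ± 0.13 in CKD mice and 0.04 ± 0.13 in sham mice. The interaction for Ldb3 was -0.38 ± 0.18 with an unadjusted p of 0.0502, so a difference between these effects was not shown. Nebl was 120, 171, 175, 187 and 187 CPM in sham-Oxf and 154 through 175 to 236 CPM in CKD-Oxf, with fold changes of -0.29 ± 0.14 and -0.10 ± 0.14.

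Tcap ran the other way. It was 317, 546, 576, 664 and 764 CPM in sham-Oxf and ran from 453 through 544 to 1221 CPM in CKD-Oxf, the highest being mouse 934. It ran from 234 through 406 to 639 CPM in sham-vehicle and from 281 through 461 to 576 CPM in CKD-vehicle, with overlap between all groups. The averaged Oxf fold change was 0.49 ± 0.17 (adjusted p = 0.0956 in edgeR). With the 7SL share as covariate Tcap passed the threshold in the averaged comparison, together with Tpm2, which was lower. That fit called 0.544% of all genes. Without mice 906 and 913 the Tcap value was 0.44 with no covariate (adjusted p = 0.153). The highest Tpm2 levels, 100.1 CPM in mouse 906 and 92.7 CPM in mouse 913, were in the vehicle libraries with skeletal muscle transcripts, and their part in the Tpm2 call was not tested. Speg was also higher with Oxf on average (0.49 ± 0.22, unadjusted p = 0.0329), and Ttn gave 0.20 ± 0.16. Ttn was 36041, 39440, 39858, 44087 and 44138 CPM in sham-Oxf and ran from 23929 through 42041 to 55429 CPM in CKD-Oxf, within the range of the vehicle groups except for a small margin at the top. The averaged values of the thick filament light chains were -0.53 ± 0.30 (Myl2) and -0.50 ± 0.33 (Myl3).

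Among the remaining genes the averaged Oxf values ran from -0.42 ± 0.21 (Tpm2) and -0.34 ± 0.18 (Tpm1) to 0.14 ± 0.11 (Synpo2l). Tnnt2 stood at -0.09 ± 0.12, Mybpc3 at -0.07 ± 0.16, Unc45b at 0.01 ± 0.13 and Fhl2 at 0.01 ± 0.16, each smaller than its error.

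Spread within groups was wide and uneven among the genes. In sham-vehicle, Myl3 ran from 111 CPM (mouse 901) to 1005 CPM (mouse 903), 9.06-fold, and Myl2 from 225 to 1891 CPM, 8.39-fold. Over the same mice Ttn varied 2.44-fold, Ldb3 1.66-fold and Xirp1 1.48-fold. The SD of log2 level within groups had a median of 0.52 over the 12 genes with under 3 kb of exon and of 0.39 over the 21 longer ones, leaving out Tnni1, against 0.55 over all tested genes. Its Spearman rho with exon length was -0.56 over these 33 genes, which share libraries and scaling.

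The level of most sarcomere genes also moved with the 7SL RNA share within groups. In an edgeR fit of the 4 group means plus the log2 7SL share, 27 of 34 genes passed an adjusted p of 0.05, of which 23 rose and 4 fell with the share. Over all genes 37.7% passed, 16.7% higher and 21% lower, and 47.1% had an unadjusted p below 0.05. The 23 ran through every role but titin, with Myl3 (0.62 ± 0.11 log2 per doubling of the share), Myl2 (0.57 ± 0.10), Tnni3 (0.36 ± 0.07), Myoz2 (0.36 ± 0.06) and Csrp3 (0.33 ± 0.06) at the top. The 4 that fell were Tpm2 (-0.39 ± 0.07), Speg (-0.28 ± 0.10), Ttn (-0.23 ± 0.07) and Pdlim3 (-0.22 ± 0.07). The count was 23 to 27 when single libraries were left out 27 when the 7SL rows were removed before scaling, and 27 without mice 906 and 913, with Xirp1 in place of Speg. In sham-vehicle the 7SL share was 2.30% in mouse 906 and 19.9% in mouse 905, in which Ttn stood at 48089 and 24678 CPM and Myl2 at 589 and 1891 CPM. Mouse 901, with 7.82%, had the lowest Myl2 of all libraries.

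**Figure D3:**
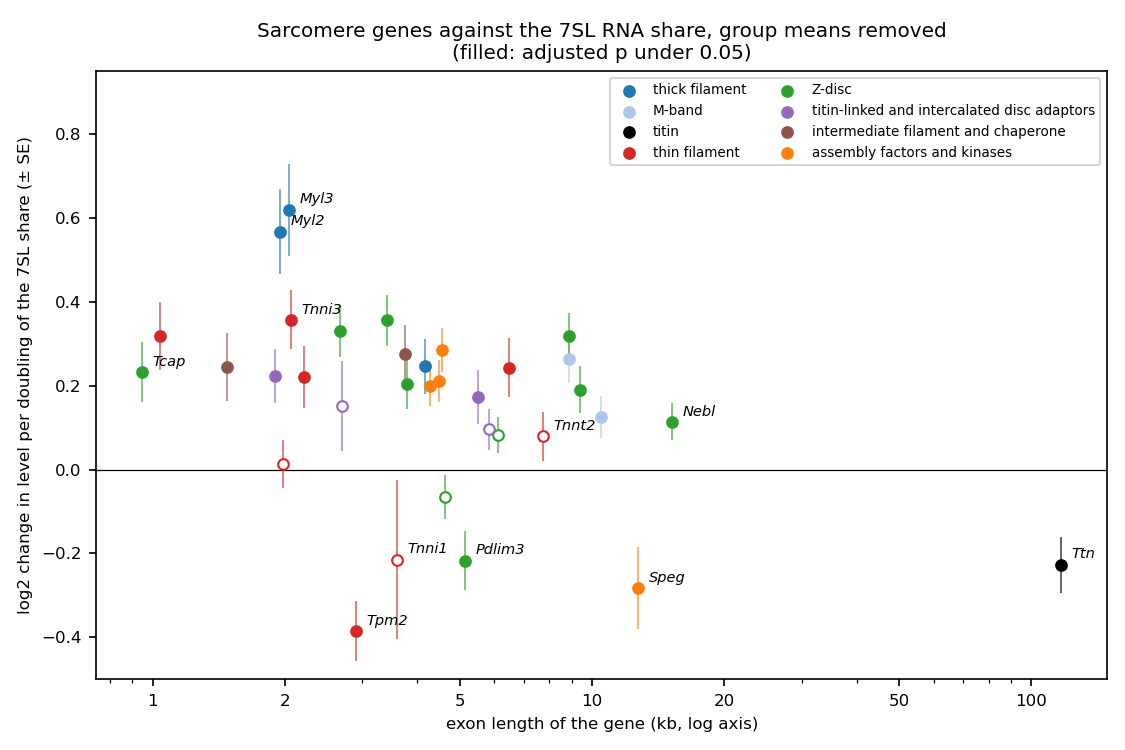
Log2 change in level per doubling of the 7SL RNA share with its SE (y axis) against exon length in kb (log x axis) for the 34 genes, coloured by role, from a fit that keeps the 4 group means. Filled points passed an adjusted p of 0.05 (27 of 34): Myl3 and Myl2 lie highest at 0.62 and 0.57, and Ttn, with the longest exons, lies at -0.23.

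The groups differed in mean share, and the medians of the Oxf and surgery values changed to differing degrees with the share as covariate. The part of the share in the group values was not tested beyond these covariate fits. The 7SL share averaged 13.6 ± 6.80% (SD) in CKD-vehicle and 9.78 ± 5.24% in sham-vehicle, against 8.81 ± 6.26% and 4.14 ± 3.52% in the matching Oxf groups, with overlapping ranges. With the share as covariate, the median over the 34 genes went from 0.36 to 0.29 (32 above 0) for CKD-vehicle against sham-vehicle. For CKD-Oxf against CKD-vehicle the median went from -0.28 to -0.17 (27 below 0). It turned from -0.10 to 0.18 for sham-Oxf against sham-vehicle (28 above 0), where Tpm2 was then called lower (0.581% of all genes called). It turned from 0.21 to -0.04 for CKD-Oxf against sham-Oxf and from -0.18 to 0.04 for Oxf averaged over surgery. The clock score beside the group means called 0 of the 34 in edgeR (0.148% of all genes), with 1 gene (Tpm1) at an unadjusted p below 0.05. Since the clock score differed by group, its part in the group values cannot be told apart from the gavage and surgery beyond the covariate fits given here.

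**Figure D4:**
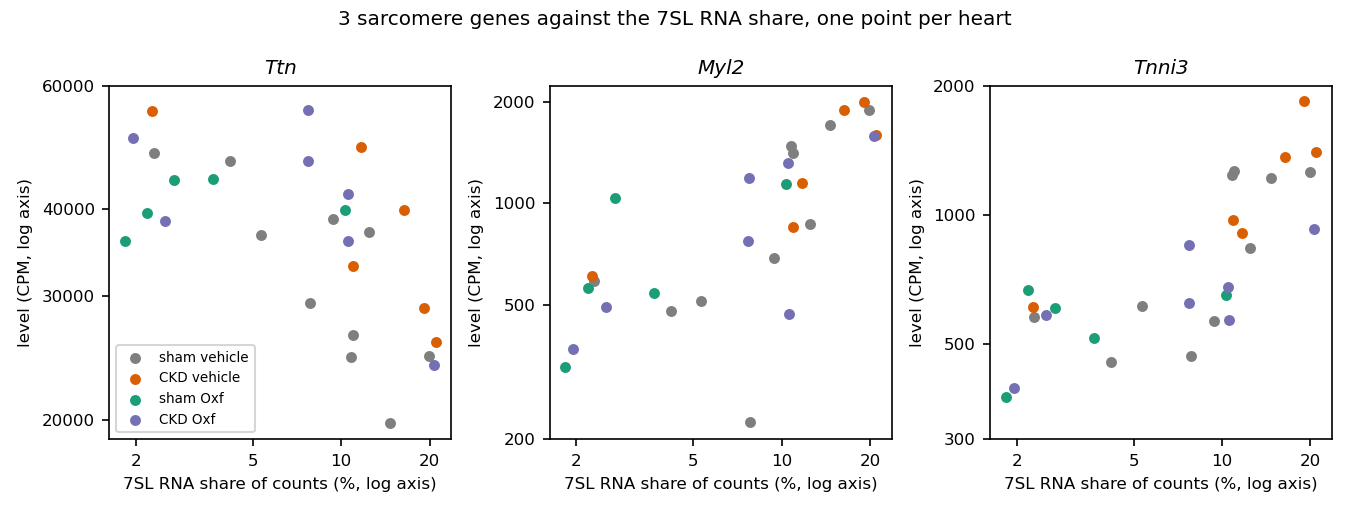
Level of Ttn, Myl2 and Tnni3 (CPM, log y axis) against the 7SL RNA share of counts (%, log x axis), 1 point per heart, coloured by group. The hearts of mice 905, 914, 916 and 934, with the highest shares, had low Ttn (23929 to 28832 CPM) and high Myl2 (1580 to 1994 CPM), and the sham-Oxf hearts lie at low shares except mouse 921 at 10.3%.

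Other genes of the sarcomere, a list of 48 of which 46 were tested, were described beside them. In CKD-vehicle against sham-vehicle 38 of 46 were above 0 (median 0.23). Of these 46, 0 passed in edgeR (0.00824% of all genes) and in DESeq2 (0.119%) and 1 in voom (0.383%). An unadjusted p below 0.05 was found for 11 higher and 1 lower, against 2.09% of all genes higher and 2.37% lower (4.46% in all). In CKD-Oxf against CKD-vehicle 34 of 46 were below 0 (median -0.18), with 0 passing in edgeR (0.033% of all genes). There an unadjusted p below 0.05 was found for 10, all lower, against 6.89% of all genes higher and 6.2% lower (13.1% in all). For Oxf averaged over surgery 2 of 46 passed in edgeR, both lower, against 1.54% of all genes lower and 2.81% in all. At an unadjusted p below 0.05 there were 4 higher and 12 lower of 46, against 23% of all genes. The first was Nexn, nexilin, an actin-binding Z-disc protein, at -0.50 ± 0.11 (adjusted p = 0.0240). It ran from 106 through 155 to 223 CPM in sham-vehicle, 172 through 216 to 262 CPM in CKD-vehicle and 108 through 132 to 152 CPM in CKD-Oxf, so the CKD groups did not overlap. In sham-Oxf it ran from 93.7 to 151 CPM. The adjusted p was 0.0514 without sham-Oxf mouse 929, 0.441 with the clock score and 0.126 with the 7SL share as covariate. The second was Tnni2, the troponin I of fast skeletal muscle, at -3.78 ± 0.92 (adjusted p = 0.0351). Its highest levels were 15.2 CPM in mouse 906 and 18.8 CPM in mouse 913, the libraries with skeletal muscle transcripts, and without both it was -1.13 with an adjusted p of 0.102.

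The main heart myosin and actin genes of that list had no adjusted p below 0.05 in edgeR in any comparison of the groups. Actc1, cardiac actin, had a mean of 1698 ± 650 CPM in CKD-vehicle and 871 ± 213 CPM in CKD-Oxf, and of 1070 ± 417 and 884 ± 265 CPM in the matching sham groups. Its lowest CKD-vehicle value, 1216 CPM, lay above the highest CKD-Oxf value, 1096 CPM, and the fold change was -0.96 ± 0.26 (adjusted p = 0.196). Acta1, skeletal actin, which the fetal heart also makes, was 1.09 ± 0.45 for CKD-vehicle against sham-vehicle (adjusted p = 0.955). The vehicle libraries of mice 906 and 913 held skeletal muscle transcripts, and their part in the Acta1 value was not tested. Ankrd1, a stretch-responsive partner of titin, was 0.12 ± 0.23 for CKD-vehicle against sham-vehicle. Myh6 and Myh7, the alpha and beta myosin heavy chains, are near-identical in places and were 0.39 ± 0.17 and 0.31 ± 0.13 in that comparison.

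The ratio of fetal to adult isoforms within a library does not depend on scaling. A family of 8 exact two-sided permutation tests covered 2 ratios in the 4 pairwise comparisons. The mean log2 ratio of Myh7 to Myh6 was -3.51 ± 0.143 in sham-Oxf (SD, n = 5) and -3.69 ± 0.0710 in sham-vehicle (n = 10), and -3.69 ± 0.128 and -3.76 ± 0.136 in the matching CKD groups (n = 7 and n = 6). The difference of 0.18 between sham-Oxf and sham-vehicle had an exact p of 0.00533 and 0.0426 adjusted over the 8 tests, and the adjusted value stayed below 0.05 in 4 of 15 fits that left out 1 mouse. The other 3 differences had exact adjusted p-values of 0.217 to 0.539. For Tnni1 to Tnni3 the differences ran from -0.26 to 0.77 with exact adjusted p-values of 0.354 to 0.939, at Tnni1 counts of at most 38, and leaving out single mice reversed some of their signs.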

How the data were processed

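Bulk RNA was sequenced from 28 ventricles, and the authors deposited raw read counts per gene for them in 1 table. Per the submitters' processing notes, FastQC 0.11.7, MultiQC 1.9, STAR 2.6.1d, Subread and featureCounts 1.6.3 were used with the mm10 build. The annotation and the settings for strand and multimapping reads are not given in the sources used here. Groups came from the labels. No library pair was identical. The edgeR 4.0.16 quasi-likelihood test (R 4.3.3) compared the 4 group means over 28 libraries after TMM scaling and a filter with a minimum count of 10, and p-values were adjusted by Benjamini-Hochberg over 24273 genes at a threshold of 0.05. The script was tested on simulated data. DESeq2 1.42.0, limma 3.58.1 (voom), other scalings and filters, 2 covariates, and leaving out libraries were the alternatives. Isoform ratios used a pseudocount of 0.5. Exon lengths and overlaps came from GENCODE M21, in which 19 of the 34 genes overlap another gene of the table. The members and lists were chosen with earlier results of these data known. Named members were those past the threshold in any comparison, filled up to 8 in the order of the 4-group p.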

Additional observations from a re-analysis of the deposited data

Results flagged for a closer look

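Over 140 comparisons within a group, of a gene or of the summed share of these genes in the counts, 5 had a single heart far from the others, where chance gives about 7. The value is the gap to the nearest heart divided by the range of the group. CKD-vehicle mouse 914 was the highest for Actn2 (0.717), Flnc, filamin C, (0.65) and Nrap (0.642). Sham-Oxf mouse 923 was the lowest for Actn2 (0.813) and Nebl (0.795).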

How the results depend on the processing

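For Oxf averaged over surgery, the 1 gene called became 3 with at least 10 counts in every library, 2 with DESeq2 size factors, 2 with upper quartile scaling, 5 in DESeq2, 8 in voom, 2 with the 7SL share as covariate, and 0 with the clock score as covariate or without a filter. Of all genes DESeq2 called 8.79% and voom 22%, so the 23.5% of the 34 in voom is near the background. The fit with at least 10 counts in every library called 10.1% of all genes and 9.09% of the members tested, also near the background. The shares of all genes were 3.15% with DESeq2 size factors, 3.3% with upper quartile scaling and 0.544% with the 7SL share as covariate. They were 0% with the clock score and 0.366% without a filter. Leaving out single libraries gave 0 to 5, with 5 without CKD-Oxf mouse 934 (13.9% of all genes) and 3 without CKD-vehicle mouse 919 (7.83%). In CKD-vehicle against sham-vehicle the count of 0 became 1 in DESeq2 (0.119% of all genes) and 3 in voom (0.383%). In CKD-Oxf against CKD-vehicle it became 5 in voom (15%). It was 0 to 1 there with single libraries left out, 1 without mouse 934 (3.83%). In sham-Oxf against sham-vehicle it became 1 with the 7SL share (0.581%), and for surgery averaged over gavage 1 in DESeq2 (0.466%) and 1 in voom (0.519%). The 4-group test gave 2 in DESeq2 (4.41% of all genes), 11 in voom (15.8%) and 1 with the 7SL share (0.713%). With single libraries left out it gave 0 to 2, with 2 without mouse 934 (3.76%). The Tnni1 to Tnni3 ratio changed sign as a difference of medians in CKD-Oxf against sham-Oxf (-0.46) and CKD-vehicle against sham-vehicle (0.30). Tnni2 changed sign in CKD-Oxf against CKD-vehicle with the clock score (0.69), and its 7SL coefficient did without mice 906 and 913 (0.0496). With single libraries left out, that ratio ran from -0.37 to 0.75 in CKD-Oxf against sham-Oxf, from -0.49 to 0.00221 in CKD-vehicle against sham-vehicle and from -0.24 to 0.87 in sham-Oxf against sham-vehicle, and the Myh7 to Myh6 difference of sham-Oxf from sham-vehicle ran from 0.127 (without mouse 929) to 0.215 (without mouse 925). The cause was not tested in any of these. No paired analysis was possible because each mouse has its own number and the groups share none.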
